A study of Rattus norvegicus with 9 samples.

Results

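The genes described here are the Fc gamma receptors of rat dendritic cells together with the chains that carry their signal: Fcgr1a, Fcgr2a, Fcgr2b, Fcgr3a, Fcer1g, Fcgrt and Syk. They were taken by symbol from the deposited expression table, and all 7 were found among its 20442 genes. All 7 also passed the filter on low values. RNA sequencing had been done on 9 cultures grown from rat bone marrow (wild type, per the labels) in medium with 10% serum, GM-CSF and IL-4 (20 ng/mL of each), conditions that drive marrow cells towards dendritic cells, which take up and present antigen. LPS+EVs cultures (n = 3) were given lipopolysaccharide (LPS), a bacterial endotoxin, and extracellular vesicles (EVs) released by ASCs. LPS cultures (n = 3) were given the endotoxin without vesicles, and Control cultures (n = 3) were left untreated. The protocol states 1 µg/mL LPS and 24 h, and also 50 ng/mL of something it does not name. Whether that unnamed agent is the vesicles, and which groups received it, is not given in the sources used here. Its effect and that of LPS therefore cannot be told apart in comparisons with Control. If it is not the vesicles and went to only LPS or only LPS+EVs cultures, its effect and theirs cannot be told apart in LPS+EVs against LPS.

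Fc gamma receptors bind the constant part of IgG antibodies and let myeloid cells sense and engulf antibody-coated particles. Activating receptors have little signalling capacity of their own in rodents. They pair with the common gamma chain encoded by Fcer1g, whose cytoplasmic ITAM, a tyrosine-based activation motif, is phosphorylated by Src family kinases and then recruits the kinase Syk. Fcgr2b works against them: its cytoplasmic ITIM, an inhibitory tyrosine motif, recruits phosphatases such as the one encoded by Inpp5d. On dendritic cells the balance between both kinds of receptor is known to set whether immune complexes activate the cell. Fcgrt encodes the heavy chain of the neonatal Fc receptor, which pairs with B2m inside endosomes, rescues IgG from degradation and carries immune complexes towards antigen presentation. Rat symbols do not map one to one onto human ones. RefSeq gives rat Fcgr2a the synonyms Fcgr3 and fcRIII, and rat Fcgr3a the synonym Fcgr4, which in mouse names a gamma chain-dependent activating receptor. Fcgr1a, Fcgr2a and Fcgr3a are therefore called activating here.

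Of the 7 genes, RefSeq promoter windows (build GRCr8, 250 bases before to 50 after a transcription start) were at hand for 4. Shown here are Fcgr3a, which had the largest rise, Syk, which had the deepest fall, Fcgrt, which shares a motif with Fcgr3a, and the upstream of a pair of windows for Fcgr2a, which also rose. The authors' alignments used mRatBN7.2, so these positions are not those of their alignments. Capitals mark the motifs GAGGAA (core of the PU.1 box, PU.1 being the master transcription factor of myeloid cells), the interferon-stimulated response element (GAAA, any 2 bases, GAAA) and TTCNNNGAA (gamma-activated site, bound by STAT factors). Both strands were searched.
Fcgr3a promoter, chr13:85782386-85782685, strand +: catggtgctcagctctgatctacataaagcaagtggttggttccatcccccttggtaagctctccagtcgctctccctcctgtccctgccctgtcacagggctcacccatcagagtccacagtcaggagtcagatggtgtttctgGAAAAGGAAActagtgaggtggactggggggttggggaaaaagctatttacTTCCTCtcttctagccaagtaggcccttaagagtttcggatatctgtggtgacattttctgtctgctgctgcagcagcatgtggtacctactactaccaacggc
Fcgr2a promoter, chr13:85828636-85828935, strand -: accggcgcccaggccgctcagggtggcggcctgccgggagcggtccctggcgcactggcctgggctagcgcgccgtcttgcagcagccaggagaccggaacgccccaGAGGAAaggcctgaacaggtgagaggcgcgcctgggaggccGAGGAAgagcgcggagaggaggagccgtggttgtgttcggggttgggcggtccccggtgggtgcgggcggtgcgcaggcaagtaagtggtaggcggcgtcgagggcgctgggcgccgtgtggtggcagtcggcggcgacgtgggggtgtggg
Syk promoter, chr17:12813224-12813523, strand -: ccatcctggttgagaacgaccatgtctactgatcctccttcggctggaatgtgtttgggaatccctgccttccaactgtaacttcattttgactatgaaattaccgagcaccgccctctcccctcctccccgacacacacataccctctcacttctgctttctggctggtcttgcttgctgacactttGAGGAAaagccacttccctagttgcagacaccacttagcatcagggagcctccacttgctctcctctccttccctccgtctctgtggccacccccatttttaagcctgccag
Fcgrt promoter, chr1:104719977-104720276, strand -: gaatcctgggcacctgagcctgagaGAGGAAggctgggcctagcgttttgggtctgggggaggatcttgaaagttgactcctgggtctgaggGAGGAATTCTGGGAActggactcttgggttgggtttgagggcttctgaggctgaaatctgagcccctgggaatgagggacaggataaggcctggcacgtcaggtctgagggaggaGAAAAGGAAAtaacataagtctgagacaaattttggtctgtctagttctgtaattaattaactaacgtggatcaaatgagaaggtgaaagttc
The PU.1 core was found in all 4 windows printed, and is held by 27.6% of the 33469 promoter windows of this length. In the Fcgrt window it occurs at 2 places, and the second is directly followed by the gamma-activated site, which 8.87% of windows hold. An interferon-stimulated response element, held by 3.92% of windows, was found in Fcgr3a and Fcgrt and has the same 10 bases, GAAAAGGAAA, in both. Its first base lies 105 bases before the start in Fcgr3a and 43 bases before it in Fcgrt. The second Fcgr2a window held none of the motifs searched. Also searched, and found in none of these windows, were an NF-kB site (GGG, any 2 bases, TTTCC, in 1.53% of windows) and CACGTG (E-box, 6.42%). A match describes these letters and shows no binding.

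Values are FPKM, read counts scaled to gene length and library size. Levels of different genes can be set side by side only as far as the gene lengths used are right. Whole reads could be recovered from the steps of the FPKM values, and gave 32148519 to 39407116 reads per library. Behind each value of these 7 genes stood at least 662 reads (Fcgrt in LPS replicate 3), and up to 88665 (Fcgr2b in Control replicate 3). Markers of the labelled cell type were partly present: Cd74, the class II invariant chain, stood at 939 to 6137 FPKM and the integrin Itgax at 29.8 to 52.0 FPKM, while Flt3, Xcr1 and Clec9a, genes of classical dendritic cells, stayed under 1 FPKM throughout. Macrophage and monocyte genes were abundant too, with the 16 listed genes in the table summing to 4196 to 6884 FPKM in LPS+EVs, 3663 to 7112 FPKM in LPS and 6999 to 8913 FPKM in Control. Lyz2 led that sum. In bulk RNA, fewer cells of a type and less RNA per cell cannot be told apart. Of other cells that carry Fc receptors, natural killer and T cells had 9 of 12 listed genes under 1 FPKM in all libraries, among them Ncr1 and Nkg7, with a list sum of 10.9 to 24.6 FPKM led by Klrk1. The 8 B cell genes summed to at most 1.34 FPKM, with Cd79a and Cd79b under 1 FPKM. The 8 mast cell and basophil genes in the table summed to 5.88 to 20.6 FPKM in LPS+EVs, 5.62 to 16.7 FPKM in LPS and 5.97 to 27.9 FPKM in Control. In that list Fcer1a, Ms4a2, Cpa3, Kit and Hdc stayed under 1 FPKM, Mcpt2 reached 23.9 FPKM (Control replicate 1) and Gata2 ranged from 1.87 to 6.66 FPKM. Neutrophil genes summed to 4.72 to 19.5 FPKM in LPS+EVs, 2.49 to 8.09 FPKM in LPS and 32.3 to 272 FPKM in Control, with 6 of 12 genes under 1 FPKM throughout. Platelet genes, led by Pf4, summed to 465 to 1964 FPKM and stromal genes, led by Col1a1, to 160 to 1012 FPKM over the 9 libraries. The 3 libraries numbered 2 stood apart in all groups: Cd74 was 6102, 5855 and 6137 FPKM in LPS+EVs, LPS and Control replicate 2, and 939 to 2550.3 FPKM in the other 6 libraries.

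Fcgr2b and Fcer1g were among the most abundant transcripts of these cells. Of all 20442 genes by mean FPKM, Fcer1g ranked 126th in LPS+EVs, 135th in LPS and 181st in Control, and Fcgr2b ranked 135th in LPS+EVs, 139th in LPS and 133rd in Control. Fcgr3a ranked 222nd in LPS+EVs, 255th in LPS and 572nd in Control. Fcgr1a ranked 970th in LPS+EVs, 998th in LPS and 539th in Control. Syk and Fcgrt were far lower, with ranks of 2487 and 2871 in LPS+EVs.

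With LPS, the activating receptors went different ways. Fcgr3a and Fcgr2a rose, Fcgr1a and Syk fell, and Fcgr2b, Fcer1g and Fcgrt did not pass the test. The same 4 genes passed, in the same directions, in LPS+EVs against Control, a comparison that shares the Control libraries. By limma (log2 of FPKM + 1, Benjamini-Hochberg adjustment over the 11141 tested genes), 4 of 7 members passed at an adjusted p under 0.05 in LPS against Control, 2 higher and 2 lower. Among all tested genes 41.0% passed, 12.3% higher and 28.7% lower. In LPS+EVs against Control the members again gave 2 higher and 2 lower, beside 44.3% of all tested genes (13.5% higher, 30.8% lower). With median-of-ratios scaling the split over all tested genes was 17.1% higher and 20.8% lower in LPS against Control, and 18.7% higher and 22.4% lower in LPS+EVs against Control, while the 4 members kept their calls and directions. With the replicate number as a block, 4 members passed in each of these comparisons, beside 52.6% and 55.2% of all tested genes in LPS and in LPS+EVs against Control. The groups did not overlap for 4 of 7 members in LPS against Control, beside 55.1% of all tested genes, and for 6 of 7 in LPS+EVs against Control, beside 60.2%. With a background this wide, the number of calls does not set the 7 genes apart. The members' median log2 difference was 0.17 in LPS against Control, beside -0.19 over all tested genes, and 0.37 in LPS+EVs against Control, beside -0.19. Labels call the replicates biological and say nothing of separate animals, so p-values measure the spread between these cultures only.

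**Figure D1:**
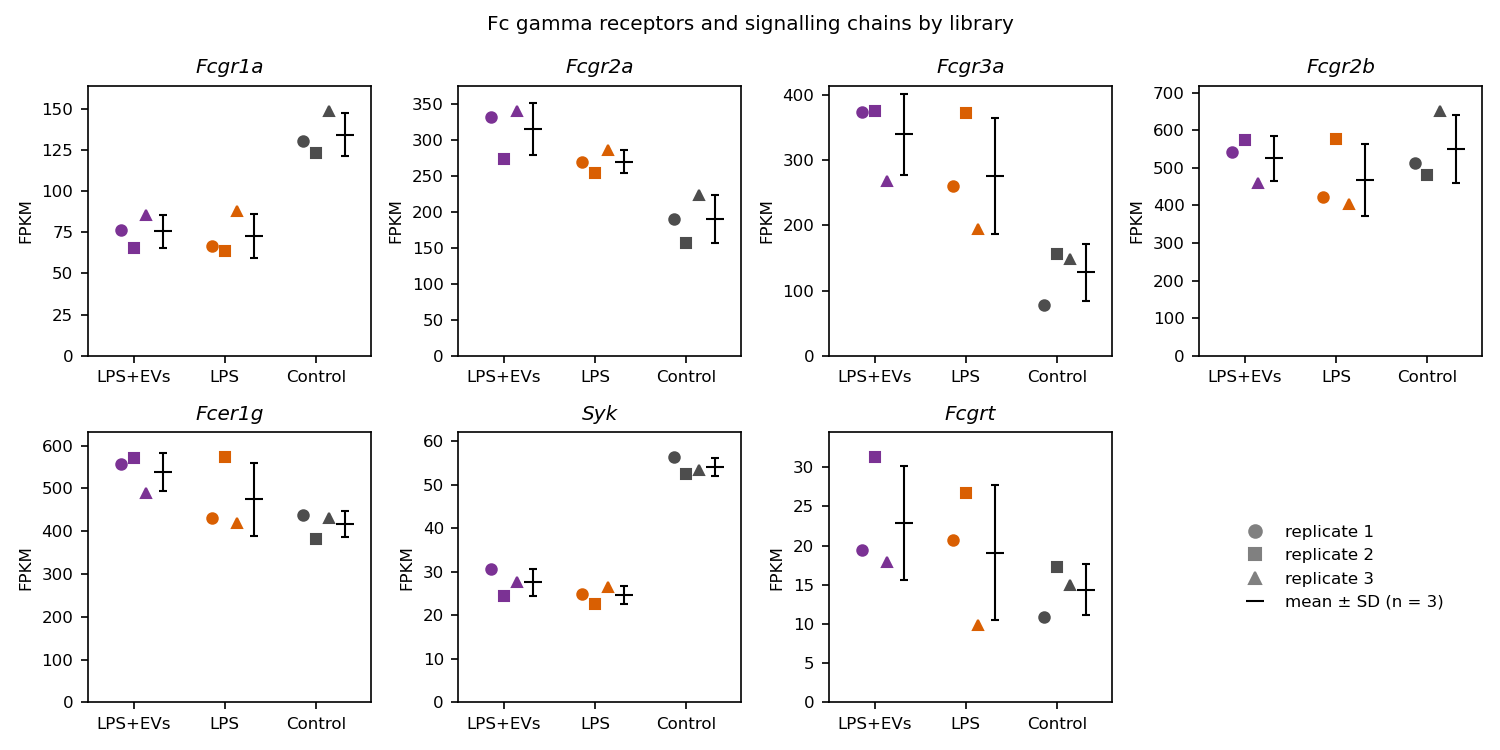
FPKM (vertical axes, from 0) of the 7 genes in each library, by group. Marker shapes give the replicate number and the black bars the mean ± SD of 3 cultures. Fcgr1a and Syk are lower, and Fcgr2a and Fcgr3a higher, in each LPS+EVs and LPS culture than in any Control culture.

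Fcgr1a encodes the high-affinity receptor, the member of the family that binds single IgG molecules. It stood at 76.2, 65.5 and 85.4 FPKM in LPS+EVs, at 66.6, 63.4 and 87.9 FPKM in LPS, and at 131, 123 and 149 FPKM in Control (replicates 1, 2 and 3). Each LPS and LPS+EVs culture lay below all Control cultures, while LPS+EVs and LPS overlapped. In LPS it averaged 72.6 ± 13.3 FPKM against 134 ± 13.2 FPKM in Control (SD, n = 3 each), a log2 difference of -0.89 (SE 0.16, adjusted p = 0.0027). In LPS+EVs it averaged 75.7 ± 9.96 FPKM, a log2 difference from Control of -0.82 (SE 0.16, adjusted p = 0.00364). Within replicate numbers, LPS over Control was 0.51, 0.514 and 0.59, a narrow range.

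Fcgr3a, a low-affinity activating receptor, had the largest rise of the 7 genes. Its values were 374, 375 and 268 FPKM in LPS+EVs, 259, 371 and 195 FPKM in LPS, and 78.2, 156 and 149 FPKM in Control. Each culture with LPS lay above all Control cultures, with a spread within groups wider than that of Fcgr1a. The means were 275 ± 89.3 FPKM in LPS and 128 ± 43.1 FPKM in Control, a log2 difference of 1.12 (SE 0.31, adjusted p = 0.0215). Leaving out Control replicate 1, LPS replicate 1 or LPS replicate 2 ended this call, at adjusted p of 0.0673, 0.0511 and 0.0551 by limma. So did testing without a filter on low values (0.0513), and over 18 alternatives the adjusted p ran from 0.00508 to 0.0673. In LPS+EVs the mean was 339 ± 61.6 FPKM, a log2 difference from Control of 1.45 (SE 0.31, adjusted p = 0.00647) that held under each of 18 alternatives. Within replicate numbers, LPS over Control was 3.32, 2.38 and 1.31.

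Fcgr2a, the other low-affinity activating receptor, rose less. It stood at 332, 274 and 341 FPKM in LPS+EVs, 269, 255 and 286 FPKM in LPS, and 190, 157 and 223 FPKM in Control. Here too the cultures with LPS lay above all Control cultures. The means were 270 ± 15.9 FPKM in LPS and 190 ± 32.9 FPKM in Control, a log2 difference of 0.52 (SE 0.15, adjusted p = 0.0233). For Fcgr2a the call was lost when Control replicate 1, Control replicate 2, LPS replicate 1 or LPS replicate 3 was left out, with adjusted p of 0.0677, 0.0762, 0.0589 and 0.0594 by limma in that order. Over 18 alternatives it ran from 0.00266 to 0.0762. For LPS+EVs, at 316 ± 36.4 FPKM, the log2 difference from Control was 0.74 (SE 0.15, adjusted p = 0.00471) and held under each of 18 alternatives.

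Fcgr2b, the inhibitory receptor, was the most abundant of the 4 receptor genes in each group. Its values were 541, 574 and 460 FPKM in LPS+EVs, 423, 577 and 404 FPKM in LPS, and 513, 482 and 653 FPKM in Control, so that all groups overlapped. The log2 difference was -0.24 in LPS against Control (95% interval -0.64 to 0.17, adjusted p = 0.318) and -0.06 in LPS+EVs against Control (95% interval -0.47 to 0.35, adjusted p = 0.81). With the libraries numbered 1 and 3 alone Fcgr2b passed as lower in LPS (log2 -0.48, adjusted p = 0.0486, range over all alternatives 0.0486 to 0.955). LPS over Control within replicate numbers was 0.824, 1.2 and 0.62, below 1 for numbers 1 and 3 and above 1 for number 2.

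Fcer1g, the gamma chain shared by the activating receptors, had 557, 570 and 489 FPKM in LPS+EVs, 431, 573 and 420 FPKM in LPS, and 438, 381 and 432 FPKM in Control. LPS and Control overlapped, while the LPS+EVs cultures lay above all Control cultures. The log2 difference was 0.17 in LPS against Control (95% interval -0.15 to 0.50, adjusted p = 0.361). In LPS+EVs against Control it was 0.37 (SE 0.14, adjusted p = 0.067), which missed the threshold. It passed when the 6 compared libraries were fitted alone (adjusted p = 0.0367), without LPS replicate 2 (0.0232) and when median-of-ratios scaling was joined to the block (0.023), in a span of 0.023 to 0.183 over 18 alternatives.

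Syk, the kinase recruited to the phosphorylated gamma chain, had the deepest fall and the smallest SE among the members. It stood at 30.7, 24.4 and 27.6 FPKM in LPS+EVs, 24.9, 22.6 and 26.5 FPKM in LPS, and 56.4, 52.5 and 53.4 FPKM in Control. The means were 24.7 ± 1.97 FPKM in LPS and 54.1 ± 2.04 FPKM in Control, a log2 difference of -1.10 (SE 0.12, adjusted p = 0.000193). In LPS+EVs the mean was 27.6 ± 3.17 FPKM, a log2 difference from Control of -0.95 (SE 0.12, adjusted p = 0.000419). Syk and Fcgr1a kept both calls in each of 18 alternatives, with adjusted p of at most 0.0195. The neutrophil and macrophage marker sums given above were also lower in LPS than in Control on average, and their part in these falls was not tested. Lyz2 led the macrophage sum, at a mean of 3449 FPKM in LPS and 6515 FPKM in Control. Of 15 tested macrophage genes 2 rose and 8 fell in LPS against Control (66.7% called, beside 41.0% of all tested genes). Cd14, for 1, averaged 739 FPKM in LPS and 302 FPKM in Control.

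Fcgrt was the least abundant member. It had 19.4, 31.3 and 17.9 FPKM in LPS+EVs, 20.8, 26.7 and 9.81 FPKM in LPS, and 10.8, 17.2 and 15 FPKM in Control. LPS covered the whole Control range, while the LPS+EVs cultures lay just above it. The log2 difference was 0.31 in LPS against Control (95% interval -0.50 to 1.12, adjusted p = 0.516) and 0.62 in LPS+EVs against Control (95% interval -0.19 to 1.43, adjusted p = 0.189). The second passed when median-of-ratios scaling was joined to the block (0.0284), in a span of 0.0284 to 0.46 over 18 alternatives. Its partner chain B2m rose to 2003 ± 270.0 FPKM in LPS against 1029.6 ± 161 FPKM in Control (log2 0.96, adjusted p = 0.00223), and stood at 2002 ± 192 FPKM in LPS+EVs. B2m was thus 91.9 ± 21.7, 121 ± 58.9 and 72.7 ± 6.62 times as abundant as Fcgrt in LPS+EVs, LPS and Control.

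**Figure D2:**
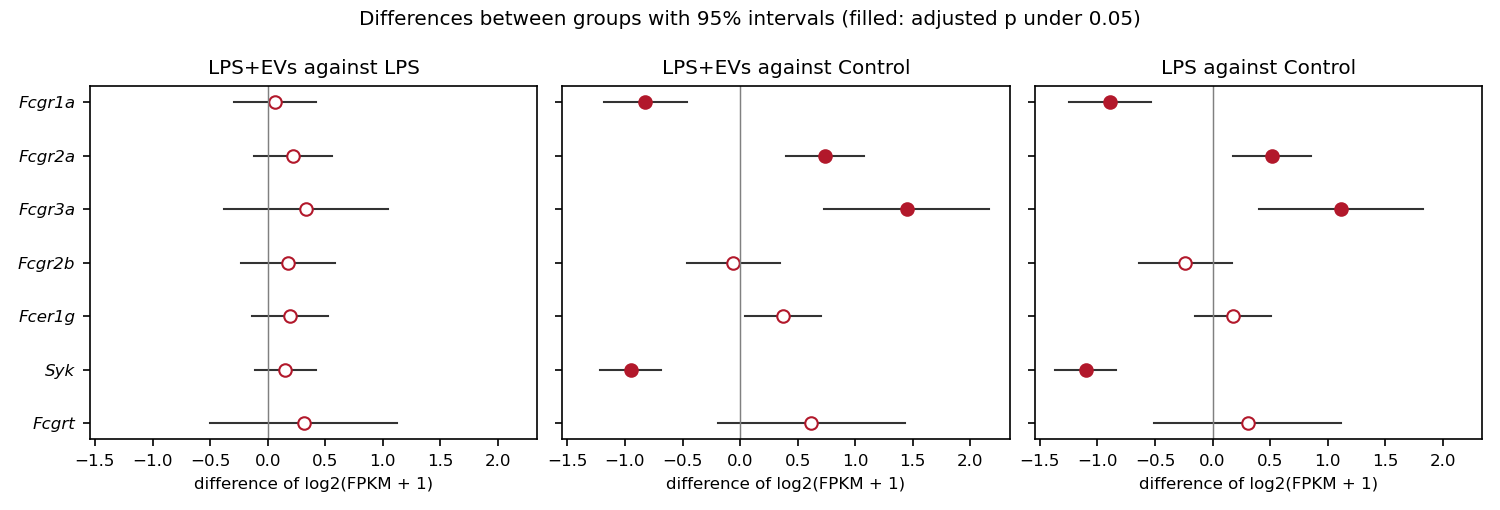
Differences of log2(FPKM + 1) between groups (horizontal axes) with 95% intervals from limma, for the 7 genes in 3 comparisons. Filled points passed an adjusted p of 0.05. In both comparisons with Control, Fcgr2a and Fcgr3a lie right of 0 and Fcgr1a and Syk left of it, and in LPS+EVs against LPS no interval excludes 0.

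The comparison of LPS+EVs with LPS sets endotoxin with vesicles beside endotoxin without them, with the limit on the unnamed agent given at the start. No member passed by limma, none had an unadjusted p under 0.05, and limma-voom on the recovered reads called none either. Across all 11141 tested genes the percentage called was 0 by both tools, and 2.65% had an unadjusted p under 0.05. All 7 members had a positive log2 difference, of 0.07 (Fcgr1a) to 0.33 (Fcgr3a), with a median of 0.19 beside -0.01 over all tested genes. The groups overlapped for each member, beside 6.62% of tested genes whose groups did not overlap. Intervals remained wide, from -0.38 to 1.05 for Fcgr3a, from -0.12 to 0.56 for Fcgr2a and from -0.11 to 0.42 for Syk. Fcgr2a, Fcgr3a and Syk were higher in LPS+EVs than in LPS within all 3 replicate numbers, and each other member within 2 of 3. For Fcgr3a those ratios were 1.44, 1.01 and 1.38, for Fcgr2a 1.23, 1.08 and 1.19, and for Syk 1.24, 1.08 and 1.04. How many of all tested genes were higher within all 3 replicate numbers was not counted. With the replicate number as a block, the smallest adjusted p among the members was 0.776 (Fcgr2a).

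Fcgr2b did not pass where Fcgr2a and Fcgr3a rose, so the mix of receptor transcripts is given next. Ratios of genes in a library do not depend on how libraries were scaled, and are given as a description without a test. Fcgr3a over Fcgr2b was 0.69, 0.654 and 0.583 in LPS+EVs, 0.613, 0.643 and 0.482 in LPS, and 0.152, 0.324 and 0.228 in Control. Fcgr2a over Fcgr2b was 0.612, 0.477 and 0.742 in LPS+EVs, 0.637, 0.441 and 0.709 in LPS, and 0.37, 0.327 and 0.342 in Control. Both ratios were higher in each culture with LPS than in any Control culture, and LPS+EVs and LPS overlapped. Fcgr1a over Fcgr2b went the other way, with 0.147 ± 0.0362 in LPS+EVs, 0.162 ± 0.0539 in LPS and 0.246 ± 0.0156 in Control. The 3 activating receptors summed to 1.4 ± 0.138 times Fcgr2b in LPS+EVs, 1.34 ± 0.123 times in LPS and 0.827 ± 0.0699 times in Control, without overlap between Control and either other group. The related gene LOC498276, described below, averaged 666, 572 and 419 FPKM in LPS+EVs, LPS and Control and is left out of all sums here. How reads were divided between it and Fcgr2a is uncertain, so ratios and shares with Fcgr2a are too. Fcer1g over Fcgr2b was 1.03 ± 0.0348 in LPS+EVs, 1.02 ± 0.0225 in LPS and 0.768 ± 0.0975 in Control. Fcer1g over the sum of the activating receptors was 0.738 ± 0.0519 in LPS+EVs, 0.764 ± 0.0588 in LPS and 0.933 ± 0.144 in Control. For that last ratio LPS and Control overlapped, with LPS replicate 2 at 0.832 and Control replicate 3 at 0.828.

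Among the 3 activating receptors, the share of Fcgr1a was 10.4 ± 1.67% in LPS+EVs, 11.9 ± 3.19% in LPS and 29.8 ± 2.52% in Control. The share of Fcgr3a was 46.3 ± 7.09% in LPS+EVs, 43.9 ± 9.82% in LPS and 28 ± 8.09% in Control. Fcgr2a held 43.3 ± 5.46%, 44.2 ± 6.76% and 42.2 ± 5.83% in LPS+EVs, LPS and Control. Fcgr3a over Fcgr1a was 4.59 ± 1.33 in LPS+EVs, 3.99 ± 1.82 in LPS and 0.956 ± 0.337 in Control, with no LPS or LPS+EVs culture below 2.22 and no Control culture above 1.27.

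**Figure D3:**
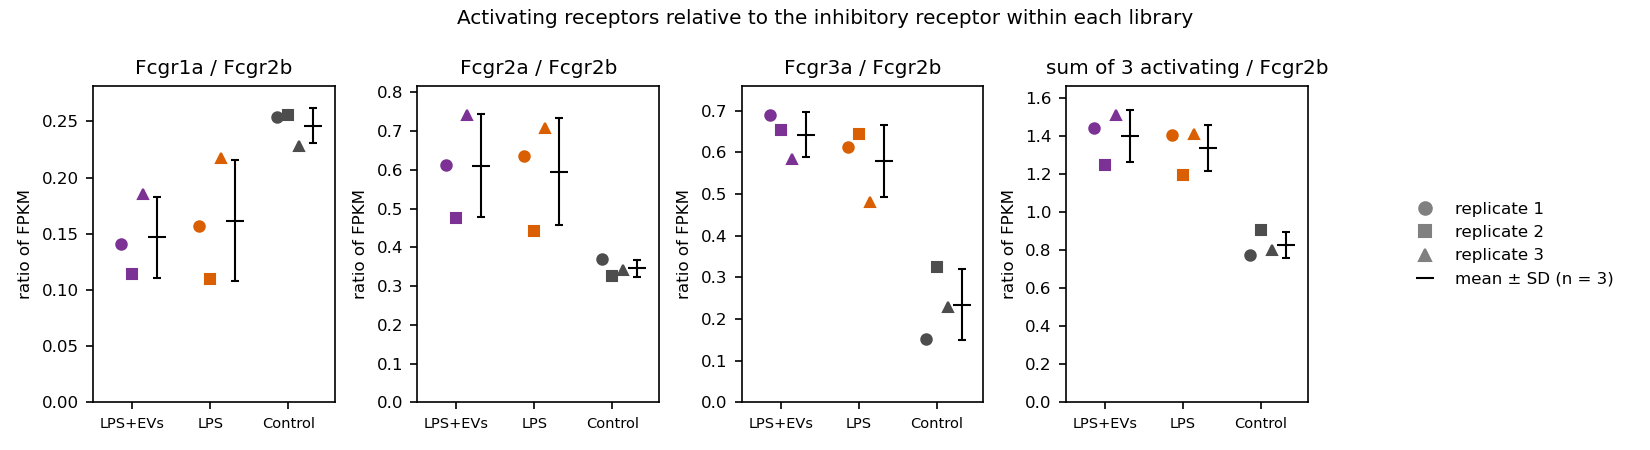
Ratio of FPKM (vertical axes, from 0) of each activating receptor, and of their sum, to the inhibitory receptor Fcgr2b in each library, by group. Marker shapes give the replicate number and black bars the mean ± SD of 3 cultures. The summed ratio, which leaves out the related gene LOC498276, lies between 1.19 and 1.51 in LPS+EVs and LPS and between 0.777 and 0.907 in Control.

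The low-affinity receptor genes lie in a cluster. In RefSeq's order on rat chromosome 13, Fcrlb and Fcrla, which encode Fc receptor-like proteins of the cell interior, are followed by Fcgr2b and Fcgr3a. Next come a long non-coding RNA gene and the pseudogene Hspa6l-ps1, and then Fcgr2a, the related gene Fcgr2al1 and the pseudogene Fcgr2a-ps1. Fcer1g lies on the same chromosome, with 10 genes in between (transfer and small RNA genes not counted). Fcgr1a, Fcgrt and Syk lie on chromosomes 2, 1 and 17. Fcgr2b passed in neither comparison with Control, while Fcgr3a and Fcgr2a of the same cluster rose in both. Fcrlb stood at 2.3 ± 0.552 FPKM in LPS+EVs, 1.87 ± 0.617 FPKM in LPS and 0.966 ± 0.226 FPKM in Control, and passed as higher in LPS+EVs against Control (log2 0.74, adjusted p = 0.0182) but not in LPS against Control (log2 0.53, adjusted p = 0.0675, and 0.0203 with the replicate block). Fcrla varied widely, with 78.5, 78.6 and 27.2 FPKM in LPS+EVs, 30, 82.3 and 12.1 FPKM in LPS, and 22.7, 41.6 and 23.9 FPKM in Control, and passed in neither.

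Fcgr2al1, listed in the table as LOC498276 and described there as Fc gamma receptor II beta, was looked at after its values were seen. By mean FPKM it was more abundant than any member in LPS+EVs and LPS, with 733, 585 and 680 FPKM in LPS+EVs, 547, 558 and 612 FPKM in LPS, and 429, 364 and 464 FPKM in Control. The rise of LOC498276 was log2 0.46 in LPS against Control (SE 0.13, adjusted p = 0.0251) and log2 0.67 in LPS+EVs against Control (SE 0.13, adjusted p = 0.00444). Across the 9 libraries the FPKM of LOC498276 was 1.99 to 2.31 times that of Fcgr2a. Recovered reads were near equal, with means of 42887 for LOC498276 and 43882 for Fcgr2a in LPS. In Control these means were 30988 and 30543 reads. The ratio of FPKM therefore rests on the gene lengths used, which are not given in the sources used here. Names and positions mark Fcgr2a, Fcgr2al1 and the pseudogene as copies. How reads that fit more than 1 of them were counted is not given in the sources used here, so the division of reads between Fcgr2a and LOC498276 is uncertain.

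**Figure D4:**
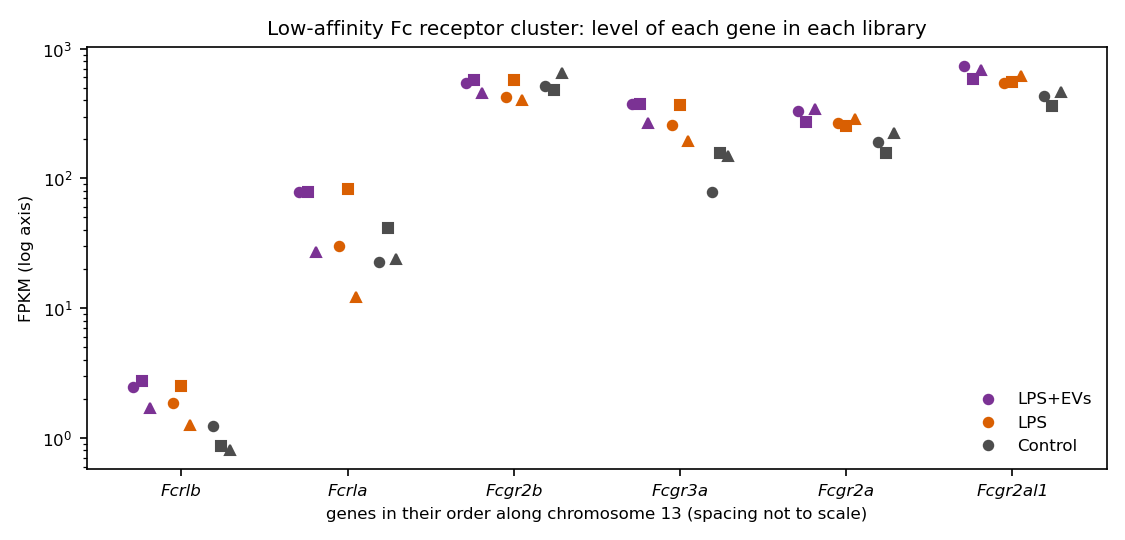
FPKM (log axis) of the genes of the low-affinity receptor cluster in each of 9 libraries, in gene order along chromosome 13 from left to right. Colours give the group and marker shapes the replicate number as in the plot of the members. Fcgr3a, Fcgr2a and Fcgr2al1 are lower in all Control libraries than in any other library, while Fcgr2b overlaps between groups.

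The replicate numbers left a mark on these genes. Within each of the 3 groups, the library numbered 2 had the lowest Fcgr1a, Fcgr2a and Syk and the highest Fcgr3a and Fcgrt. For Fcgr2b and Fcer1g it was the highest library in LPS+EVs and LPS and the lowest in Control. The same libraries had the high Cd74 values given above, and summed dendritic cell markers of 8846, 8460.0 and 10336 FPKM in LPS+EVs, LPS and Control, against 1438 to 4175 FPKM in the other 6. Cd74 led that sum, so these values are not independent of each other. Class II genes of the list were also high in these libraries. RT1-Da was 912, 935 and 1477 FPKM in LPS+EVs, LPS and Control replicate 2, and 39.0 to 386 FPKM in the other 6 libraries. RT1-Bb was 788, 728 and 1002.7 FPKM there, and 8.38 to 104 FPKM in the other 6. Other genes of the list went both ways in the LPS library numbered 2. Irf8 and Batf3 were the highest of that group there, and Sirpa, Clec10a and Fscn1 the lowest. Natural killer and T cell markers summed to 24.6, 20.3 and 24.3 FPKM in libraries 2 and to 10.9 to 16.5 FPKM elsewhere, with Klrk1 at 19.6 to 23.4 FPKM in libraries 2 and at 8.97 to 15.9 FPKM elsewhere. That sum is thus mostly Klrk1, and other genes of its list went both ways in the LPS library numbered 2. Ncr1, Gzmb and Cd2 were the lowest of that group there (0.0859, 0.415 and 0.0235 FPKM), and Nkg7 the highest (0.114 FPKM). Stromal sums were the lowest of each group in libraries 2, at 210, 160 and 217 FPKM in LPS+EVs, LPS and Control, against 500 to 1012 FPKM elsewhere. Neutrophil and platelet sums were also the lowest of each group there. Macrophage and monocyte sums were the highest of each group, at 6884, 7112 and 8913 FPKM. The part of these markers in the members' levels was not tested. With libraries 1 and 3 alone, Fcgr1a, Fcgr2a, Fcgr3a and Syk passed in both comparisons with Control.

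Genes with the most similar pattern over the 9 libraries were looked up among 10371 tested genes with full symbols, by Pearson correlation of log2(FPKM + 1), as a description. The points share 3 groups and the library scaling, so any gene that separates Control from the rest can rank high. Fcgr1a was most like Rhbg (r = 0.993), Sumo2 (0.99) and Tlr5 (0.99). Fcgr3a was most like Copb2 (0.978), Ints12 (0.975) and Lbh (0.974), and Fcgr2a like Lnc134 (0.977), Adipor1 (0.97) and Pdlim4 (0.97). Fcgr2b was most like Itm2b (0.93), Cd59 (0.925) and Snx5 (0.911). Fcer1g was most like Ankrd13d (0.982), Apool (0.974) and Pex19 (0.962). Syk was most like Brca2 (0.995), Ifi30 (0.993) and Pclaf (0.993), and Fcgrt like Acvrl1 (0.941), Zeb2-as1 (0.939) and Hnrnph3 (0.937).

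Downstream of the receptors, genes were called in shares near or somewhat above those of all tested genes. Over 4 lists of other Fc receptors, proximal signalling, phagocytosis and inhibition, 105 of 125 listed genes were tested. In LPS against Control 13 rose and 36 fell (46.7% called, beside 41.0% of all tested genes), with a median log2 difference of -0.16 beside -0.19 over all tested genes. In LPS+EVs against Control 15 rose and 39 fell (51.4% called, beside 44.3%), with a median of -0.20 beside -0.19. With the replicate block alone 61 of 105 passed in LPS against Control, 19 higher and 42 lower, beside 52.6% of all tested genes. In LPS+EVs against Control 29 of 42 proximal, 20 of 35 phagocytosis and 14 of 22 inhibitory genes passed with the block, beside 55.2% of all tested genes. The split depended on scaling: with median-of-ratios scaling 17 rose and 28 fell in LPS against Control, and 25 rose and 27 fell in LPS+EVs against Control. With the replicate block added these were 29 and 32 in LPS against Control (58.1% called, beside 50.3% of all tested genes). In LPS+EVs against Control they were 35 and 32 (63.8% called, beside 52.6%), where more rose than fell. There 33.3% of the listed genes were higher and 30.5% lower, beside 25.4% and 27.2% of all tested genes. The lists' counts are therefore read against the background only, and nothing is called particular to them. In LPS+EVs against LPS none passed by limma or limma-voom, and 2 had an unadjusted p under 0.05, Rac2 and Ptpn6.

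Of the proximal kinases, adaptors and effectors, 5 of 42 tested genes rose and 15 fell in LPS against Control, and 7 rose and 15 fell in LPS+EVs against Control. In LPS against Control that is 11.9% higher and 35.7% lower, beside 12.3% and 28.7% of all tested genes. With median-of-ratios scaling 7 rose and 14 fell in LPS against Control, and 12 rose and 13 fell in LPS+EVs against Control. The Src family kinase Fgr fell to 32.1 ± 4.59 FPKM in LPS against 79.7 ± 7.97 FPKM in Control (log2 -1.29, adjusted p = 0.000505). Pik3cd, a catalytic subunit of PI 3-kinase in leukocytes, fell to 7.75 ± 4.47 FPKM against 42.8 ± 7.11 FPKM (log2 -2.43, adjusted p = 0.000649). Card9, an adaptor that links Syk to NF-kB, fell by 1.40 on the log2 scale, the adaptor Shc1 by 0.81, the kinase Btk by 1.39 and the PI 3-kinase subunit Pik3cg by 1.91. The adaptors Gab2 and Lat rose, Lat by 1.20 on the log2 scale (adjusted p = 0.00692) and Gab2 to 33.7 ± 1.09 FPKM against 20.7 ± 1.39 FPKM in Control (log2 0.68, adjusted p = 0.00246). Lyn, a Src family kinase named outside the rule for named genes, had 91.8 ± 4.42 FPKM in LPS and 97.5 ± 2.29 FPKM in Control (adjusted p = 0.483).

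Inhibitory phosphatases and adaptors had 3 of 22 tested genes higher and 9 lower in LPS against Control, and 3 higher and 10 lower in LPS+EVs against Control. For LPS against Control these are 13.6% and 40.9%, beside 12.3% and 28.7% of all tested genes. Under median-of-ratios scaling the list had 4 higher and 7 lower in LPS against Control, and 5 higher and 7 lower in LPS+EVs against Control. Ptpn6, the tyrosine phosphatase SHP-1, stood at 47.8 ± 7.87 FPKM in LPS+EVs, 37.2 ± 3.63 FPKM in LPS and 142 ± 18.7 FPKM in Control, a log2 difference of -1.90 in LPS against Control (adjusted p = 4.54e-05). For LPS+EVs against LPS the Ptpn6 difference was 0.34 (unadjusted p = 0.0495, adjusted p = 0.999). Inpp5d, the lipid phosphatase that Fcgr2b recruits, also named outside the rule, fell to 22.5 ± 4.66 FPKM in LPS against 33.1 ± 4.22 FPKM in Control (log2 -0.55, adjusted p = 0.0342), a call that median-of-ratios scaling ended (log2 -0.34, adjusted p = 0.0572). Pag1, a membrane adaptor for the Src inhibitor Csk, fell by 1.36 on the log2 scale, the phosphatase Ubash3b by 1.07 and the ITIM receptor Clec12a by 1.58, while Cd72, another ITIM receptor, rose by 1.80 (adjusted p = 0.000984).

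Of 35 tested genes for actin and membrane steps of phagocytosis, 4 rose and 11 fell in LPS against Control, and 4 rose and 13 fell in LPS+EVs against Control. The LPS against Control shares were 11.4% higher and 31.4% lower, beside 12.3% and 28.7% of all tested genes. After median-of-ratios scaling 5 rose and 6 fell in LPS against Control, and 7 rose and 6 fell in LPS+EVs against Control. Arpc1b, a subunit of the actin-branching Arp2/3 complex, fell to 368 ± 11.7 FPKM in LPS against 611 ± 57.4 FPKM in Control (log2 -0.73, adjusted p = 0.00109), and Dock8, an activator of the GTPase Cdc42, to 26.5 ± 7.38 FPKM against 60.1 ± 3.02 FPKM (log2 -1.18, adjusted p = 0.00102). The complex subunits Actr2 and Arpc5 fell by 0.82 and 0.48, and the actin regulator Was by 0.77. With median-of-ratios scaling Arpc5 and Was did not pass in LPS against Control (log2 -0.27 and -0.56, adjusted p = 0.173 and 0.0565). Its relative Wasl rose by 1.01 and the lipid kinase Pip5k1a by 0.80. Rac2, a GTPase of blood cells, had 561 ± 41.2 FPKM in LPS+EVs and 462 ± 22.8 FPKM in LPS (log2 0.28, unadjusted p = 0.0306, adjusted p = 0.999).

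Of 19 listed other Fc receptors and Fc-binding proteins 6 were high enough to test, and 1 rose and 1 fell in each comparison with Control. That is 33.3% called, beside 41.0% of all tested genes in LPS and 44.3% in LPS+EVs against Control. With the replicate block 3 of the 6 passed in LPS against Control and 4 in LPS+EVs against Control, beside 52.6% and 55.2% of all tested genes. Fcrl2, an Fc receptor-like gene, fell to 0.731 ± 0.833 FPKM in LPS against 14.9 ± 4.2 FPKM in Control (log2 -3.26, adjusted p = 0.000193) and was at 0.588 ± 0.357 FPKM in LPS+EVs. Trim21, the cytosolic antibody receptor, rose to 16.4 ± 5.11 FPKM in LPS against 8 ± 1.56 FPKM in Control (log2 0.93, adjusted p = 0.0398). Trim21 did not pass in LPS+EVs against Control (log2 0.77, adjusted p = 0.0707), and did so with the replicate block (0.0127).

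The last list holds other receptors with ITAM-related signalling, and small adaptors such as Hcst. It gave none higher and 5 lower of 14 tested genes in LPS against Control, and 1 higher and 4 lower in LPS+EVs against Control. In LPS against Control 35.7% of this list passed, beside 41.0% of all tested genes. With the replicate block 8 passed, or 57.1%, beside 52.6% of all tested genes. Median-of-ratios scaling gave 1 higher and 3 lower in LPS against Control, and 2 higher and 3 lower in LPS+EVs against Control. Clec7a, the beta-glucan receptor Dectin-1, fell to 61.2 ± 8.13 FPKM in LPS against 144 ± 8.96 FPKM in Control (log2 -1.23, adjusted p = 0.000533), and the log2 differences of Trem2, Cd300lb and Clec5a were -0.61, -1.93 and -1.86. Hcst, a small adaptor, fell in LPS against Control (log2 -0.72, adjusted p = 0.0457). Trem2 and Hcst did not pass there with median-of-ratios scaling (log2 -0.39 and -0.53, adjusted p = 0.117 and 0.0655). Trem1, an amplifier of inflammation, was the gene that rose in LPS+EVs against Control (log2 0.85, adjusted p = 0.013). In LPS against Control Trem1 missed the threshold (log2 0.55, adjusted p = 0.0726, and 0.0438 with the replicate block). Tyrobp, the ITAM adaptor most like Fcer1g, had 403 ± 27 FPKM in LPS+EVs, 328 ± 67.1 FPKM in LPS and 421 ± 16.6 FPKM in Control and passed in no comparison without the replicate block. For LPS against Control the adjusted p was 0.068, and 0.0449 with it.

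**Figure D5:**
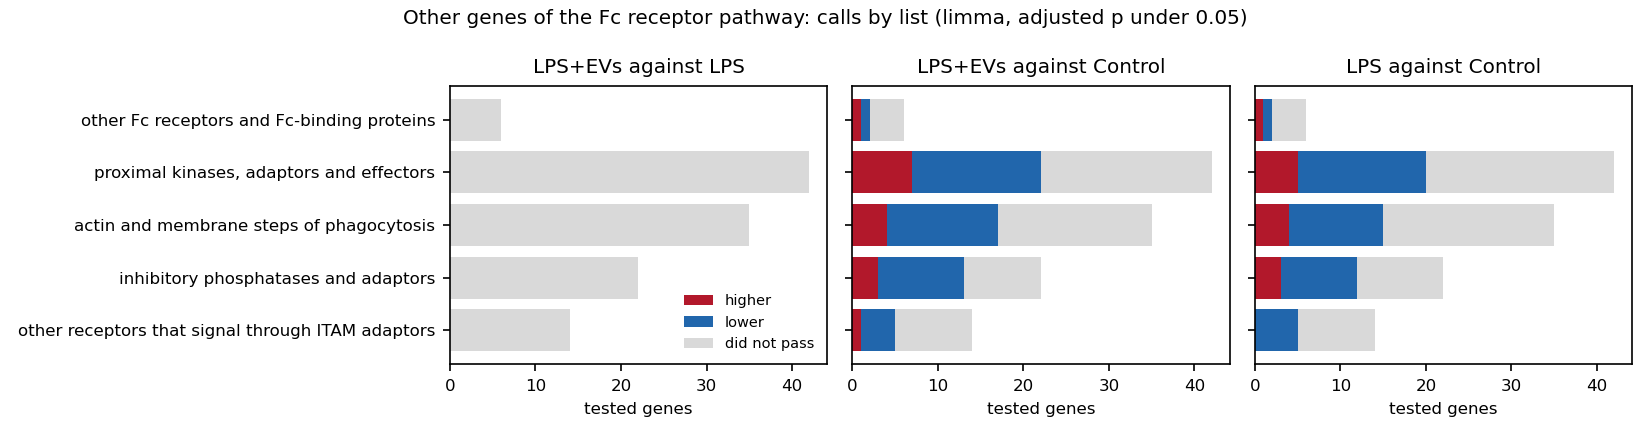
Number of tested genes (horizontal axes) in 5 lists of other Fc receptor pathway genes that were higher, lower or did not pass by limma at an adjusted p of 0.05, in 3 comparisons. The lowest list holds receptors with ITAM-related signalling and also small adaptors. Over the upper 4 lists 15 genes rose and 39 fell in LPS+EVs against Control and 13 rose and 36 fell in LPS against Control, a split that is closer to even with median-of-ratios scaling (25 and 27, and 17 and 28), and none passed in LPS+EVs against LPS.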

How the data were processed

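RNA was sequenced from 9 cultures, and groups and replicate numbers came from the sample titles. The values are FPKM deposited by the authors. Per the submitters' processing notes, fastp, HISAT2, HTSeq, R 3.2.0 and genome build mRatBN7.2 were used, with settings not given in the sources used here. The unit is not written in the file header and was taken from the values. FPKM of a gene move in steps worth 1 read each, from which whole reads were recovered (tolerance 0.01 reads) for 100% of the 18833 genes above 0 in 2 or more libraries (32148519 to 39407116 reads per library). For 1 kilobase of gene, 3 reads equal 0.0761 to 0.0933 FPKM, which covers counting error and nothing else.

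The 11141 genes that reached 1 FPKM in 3 or more libraries were tested with limma 3.58.1 in R 4.3.3 (trend on mean expression, all 9 libraries, 1 mean per group, two-sided) on log2(FPKM + 1), a scale that understates changes of low genes. P-values were adjusted by Benjamini-Hochberg over all tested genes of a comparison, with a threshold of 0.05. The fits were tested on simulated data. The members and gene lists were chosen with earlier results of these data known. Named pathway genes are, per list and comparison, up to 4 with the smallest adjusted p, or the 2 with the smallest p where none passed, and 1 gene so named is not reported here. After group means were removed, libraries with the same number correlated at 0.284 to 0.863 across groups, and those with different numbers at -0.745 to 0.426. The numbers were therefore taken to pair the cultures, while the main fit leaves this pairing out. A fit with the replicate block is given where it changes the call of a named gene, and for the lists. Alternatives were another pseudocount, other filters and scaling, the replicate block, a 2-fold threshold, fits to the 6 compared libraries only or to libraries 1 and 3 only, and leaving out each library. Limma-voom on recovered reads was added after seeing the data. Tables and plots were made in Python 3.11.15 (matplotlib 3.10.9, numpy 2.4.6, pandas 2.3.3).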

Additional observations from a re-analysis of the deposited data

How the results depend on the processing

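Each member's log2 difference was recomputed under 18 alternatives in 3 comparisons, 378 values in all. Of these, 357 kept their direction and their side of the threshold, 8 lost a call (Fcgr2a and Fcgr3a in LPS against Control, 4 each, given above), 5 gained one and 8 changed sign. The sign changes were in differences that had not passed. In LPS against Control Fcer1g was -0.031 with libraries 1 and 3 alone. Leaving out 1 library at a time gave -0.024 to 0.21 for Fcgr1a and -0.083 to 0.60 for Fcgrt in LPS+EVs against LPS, and -0.15 to 0.071 for Fcgr2b in LPS+EVs against Control. The negative values of Fcgr1a came without LPS replicate 2 and without LPS+EVs replicate 3, that of Fcgrt without LPS replicate 3, and the positive values of Fcgr2b without Control replicate 3 and without LPS+EVs replicate 3. Fcgr2b was also 0.17 there with median-of-ratios scaling, with and without the replicate block. The causes were not tested. Median-of-ratios scaling set the median of all tested genes at 0.00 in both comparisons with Control, where it was -0.19 without it, and ended no member's call. With a 2-fold threshold, 2 members passed in LPS against Control and 1 in LPS+EVs against Control, 1954 and 2125 of all tested genes, and 23 and 23 other pathway genes. Leaving out 1 library at a time gave 2 to 4 members in LPS against Control, 4 to 5 in LPS+EVs against Control and none in LPS+EVs against LPS, with 2775 to 4526, 3239 to 5776 and 0 to 1 of all tested genes (2775 without Control replicate 1), and 39 to 51, 41 to 59 and 0 other pathway genes. With the replicate block 4 members passed in both comparisons with Control and 0 in LPS+EVs against LPS, and it changed no member's call unless joined to median-of-ratios scaling. Each group holds 3 cultures, and each member had at least 662 reads in each library.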
